A study of Mus musculus with 31 samples.

Results

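The control chromatin immunoprecipitation (ChIP) with mouse IgG1 was deposited as a list of genomic windows, and 1440 of its 1730 windows lie on chromosomes 1 to 19. All rows on these autosomes were taken, with no other choice. The list gives a chromosome, a start and an end for each window and no score, and the rule that picked the windows is not stated in the labels or the file. The remaining rows are 289 windows on X and 1 on Y.

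The study compared wild-type mouse embryonic stem (ES) cells with cells lacking Srap1, a protein with a SRAP domain, and asked where Srap1 and oxidized forms of 5-methylcytosine lie. 3 samples matter here, each a single library, so no value has a replicate and no difference between libraries was tested. The IgG ChIP came from crosslinked lysate of cultured ES cells at passages 3 to 5. Its labels give no genotype, and the protocol for ChIP describes ES cells that stably express tagged Srap1 (FHA-Srap1). The IgG DIP, a control immunoprecipitation of purified DNA, came from Srap1 KO ES cells at passages 3 to 5. The RNA table came from rRNA-depleted RNA of Srap1 KO ES cells. All 3 are labelled with the background 129SVxC57/BL6, and the growth protocol describes wild-type and knockout lines derived together, cultured without feeder cells in leukemia inhibitory factor, 2i inhibitors and ascorbic acid. No line is named as a clone or a pool. The RNA table names no genes, so the ES cell label was not checked against marker genes.

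IgG from an animal with no relevant immunity binds no chosen target. The DNA it brings down is a sample of what sticks to beads and antibody, weighted by how readily chromatin breaks, how well fragments amplify and how well reads align. An IgG ChIP starts from fixed chromatin, in which open and closed regions shear unequally, whereas an IgG DIP starts from naked DNA. Reads from repeated sequence align to several places and receive a low mapping quality. Mapping quality was taken to be the score in column 5 of the IgG DIP reads, which ran from 0 to 60. Reads of at least 30 and reads under 30 were therefore counted apart.

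Each window was set beside the whole grid of 2 kb windows on the same chromosomes, from the first to the last grid window with an IgG DIP read. This usable grid held 1207681 windows, or 2415 Mb, of which the listed windows make up 0.119%. Grid values are weighted by the number of listed windows on each chromosome unless stated. A single random draw from the grid with a fixed seed, 10 windows for each listed one on the same chromosome, is given beside it.

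The windows carry the coordinates of mouse build mm9. Every one of the 1440 starts lies on a 2 kb grid, and 1439 windows are 2000 bases wide. The exception, of 651 bases, runs from 95272001 to 95272651 on chromosome 17, the last base of that chromosome in mm9. The last IgG DIP read on chromosome 17 ends at 95272567, so the reads also reach the end of the mm9 chromosome. The windows of chromosome 1 reach 196876000, past the end of that chromosome in mm10. No gene, exon or intron was assigned to a window, since the gene table at hand is of another build, and no genome sequence of mm9 was used here.

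The listed windows were scattered thinly over all autosomes, at 0.596 windows per Mb (95% Poisson interval 0.566 to 0.628). The lowest density was 0.376 per Mb on chromosome 14, with 46 windows (0.276 to 0.502). The highest were 0.759 on chromosome 17, with 70 windows (0.591 to 0.958), and 0.742 on chromosome 1, with 144 windows (0.625 to 0.873). The intervals of chromosomes 14 and 11 (0.446 per Mb, 0.334 to 0.583) lie wholly below the autosomal value, and that of chromosome 1 wholly above it. Chromosome X, for comparison, had 1.77 windows per Mb (1.57 to 1.98), above the interval of every autosome. Intervals given for counts and shares cover counting error only, and neighbouring windows of a list are not replicates.

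**Figure D1:**
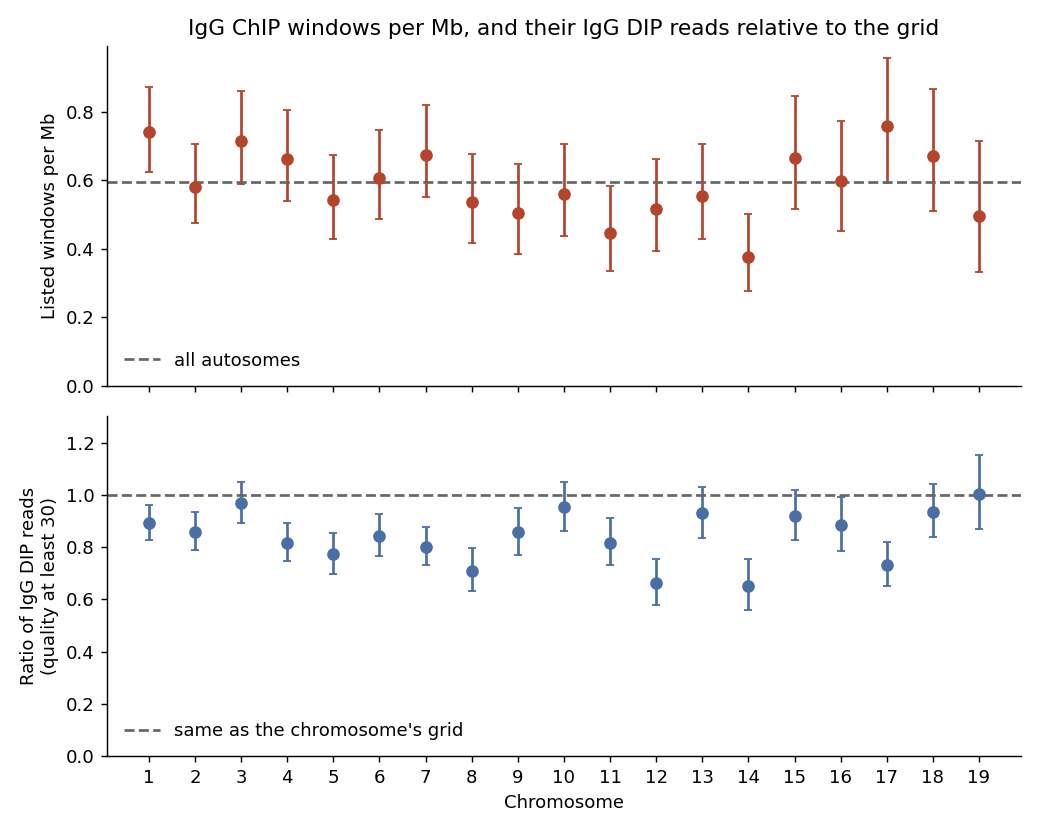
Listed windows per Mb of usable grid (upper panel) and the ratio of IgG DIP reads of mapping quality at least 30 in listed windows to the mean of the chromosome's grid (lower panel), for each autosome. Bars are 95% exact Poisson intervals, the upper dashed line is the autosomal density of 0.596 per Mb, and the ratio lies below 1 on 18 of 19 autosomes.

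Neighbouring windows stood 1032 kb apart at the median, counted from start to start over 1421 gaps (95% order-statistic interval 938 to 1132 kb). Quartiles were 410 and 2254 kb. A single draw of as many grid windows per chromosome had a median gap of 1124 kb and quartiles of 488 and 2334 kb. The draw's median lies inside the interval of the listed windows. The listed gaps were somewhat more uneven, with a coefficient of variation of 1.10 against 1.01 in the draw. Gaps of up to 100 kb made up 6.47% of the listed gaps (5.25% to 7.88%) and 5.42% in the draw.

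Directly adjacent windows were rare. In all, 3 pairs touched, at 50506001 to 50510000 and 175566001 to 175570000 on chromosome 2 and at 26566001 to 26570000 on chromosome 13, and the draw had 2 such pairs. The first pair held 8 and 13 IgG DIP reads of quality at least 30 in its windows, and the pair on chromosome 13 held 4 and 4. The second pair on chromosome 2 held 0 and 0, and 1 and 3 reads under 30. It lies in a neighbourhood with no reads of quality at least 30 at all, where the 10 grid windows on either side of its first window held 4.65 reads under 30 on average. The 3 pairs lay 128, 566 and 1469 kb from the nearest transcribed locus. Within 10 kb, 11 gaps were found in the list and 7 in the draw.

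In 473 bins of 5 Mb, the listed windows varied more than the drawn ones. The variance over the mean of the counts was 1.33 for listed windows and 0.974 for the draw. The median bin held 3 listed windows, 43 bins held none (25 in the draw), and the fullest held 14 (9 in the draw). Bins and their limits were chosen after the positions had been seen.

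The densest stretch was the end of chromosome 17. The bins from 83000001 to 88000000 and from 88000001 to 93000000 held 12 and 14 windows, and the last 2.274 Mb held 7. Together the last 12.274 Mb carried 33 of the 70 windows of the chromosome, at 2.69 per Mb (1.85 to 3.78), against 0.463 per Mb (0.326 to 0.637) on the rest. The same stretch was thin in the IgG DIP, with a mean of 3.16 reads of quality at least 30 per grid window against 6.27 on the rest of the chromosome. Within it the listed windows had 3.06 ± 2.46 reads (SD, 33 windows), 0.968 of the local grid (0.788 to 1.18). The X chromosome showed a like pair of values, with 1.77 windows per Mb and 1.87 reads per grid window. The ChIP and DIP libraries were made from different material, and the part of copy number in these values was not tested.

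The next fullest bins held 9 windows each. On chromosome 7, from 18000001 to 23000000, 8 of the 9 windows had no read of quality at least 30, as did 56.8% of the grid windows of the bin, and 7 of the 9 had reads under 30, beside 73.9% of the bin. On chromosome 7, from 63000001 to 68000000, 4 of the 9 had no read of quality at least 30, against 26.7% of the bin. On chromosome 15, from 13000001 to 18000000, the 9 windows held 5.11 ± 2.205 reads (SD) of quality at least 30 each, and the grid of that bin 3.25. No grid window of the chromosome 15 bin overlapped a transcribed locus.

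Bins rich in listed windows were poor in IgG DIP reads and in transcribed loci. The 22 bins with 7 or more windows had 4.35 ± 1.42 reads of quality at least 30 per grid window (SD over bins), and 7.94% ± 5.61 of their grid windows overlapped an RNA locus. The 408 bins with 1 to 6 windows had 6.00 ± 1.67 reads and 14.1% ± 8.81. The 43 bins without a window had 6.73 ± 2.44 reads and 17.5% ± 12.1. The spreads of these classes overlap widely.

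The widest stretches without a window were on chromosomes 14, 12 and 7. On chromosome 14 the list is empty for 17.04 Mb between 86692000 and 103728001, where the grid held 5.96 reads of quality at least 30 per window. The last 18.2 Mb of that chromosome also hold no window. The gap on chromosome 12, from 99780000 to 115244001, measured 15.5 Mb, with 8.01 reads per grid window and 22.8% of grid windows over an RNA locus. The gap on chromosome 7, from 33934000 to 46762001, measured 12.8 Mb, but 54.7% of its grid windows had no IgG DIP read of any quality. These gaps thus differ in kind, since only that on chromosome 7 has mostly empty grid windows.

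**Figure D2:**
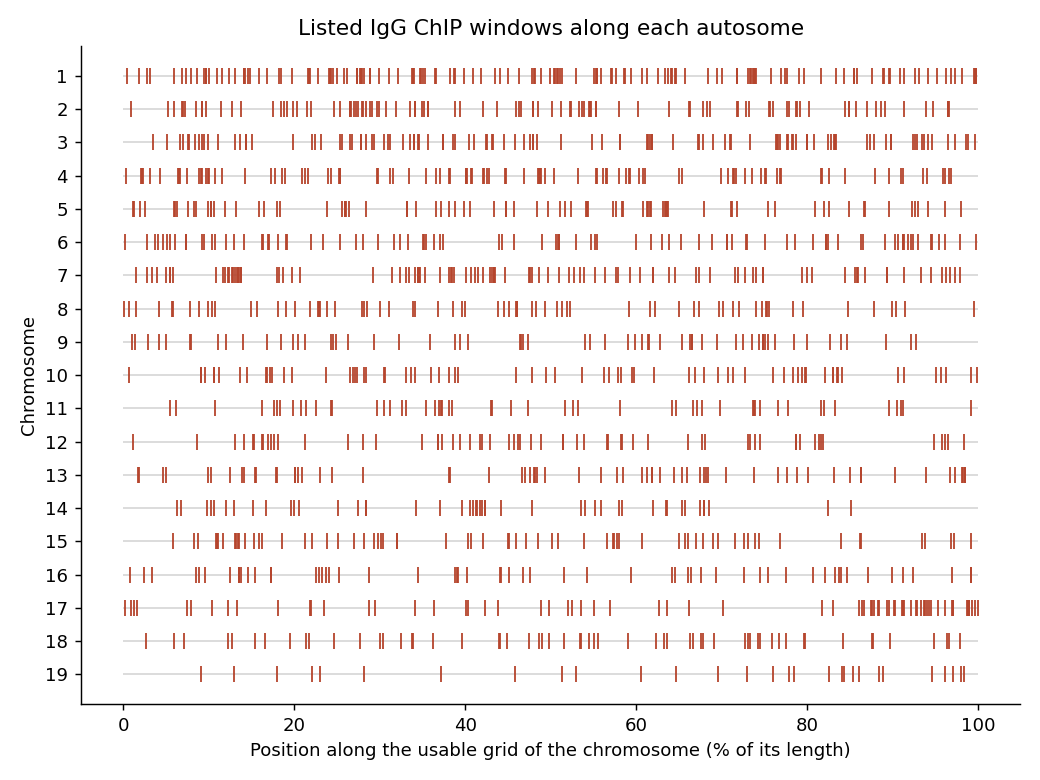
Position of each of the 1440 listed windows (ticks) along the usable grid of its chromosome, in percent of its length, with one row per autosome. The 33 windows at the end of chromosome 17 form the densest stretch, and chromosome 14 is empty over its last part.

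Along the chromosomes as a group the windows were spread evenly at the scale of 10 equal parts. When each chromosome was cut into 10 equal parts, the parts held 127 to 162 windows, or 8.82% to 11.3%, where an even share is 10%. The fullest part was the second from the centromere end, with 11.3% (9.66% to 13.0%), and the interval of every part included the even share. In 3 equal parts the shares were 33.1%, 34.5% and 32.4%. At a finer scale, the last 1 Mb of the 19 chromosomes held 19 windows, where the chromosome makeup gives 11.2. No interval was computed for this count. On 10 of the 19 chromosomes the last listed window lay within 1 Mb of the last usable one. The first usable 1 Mb held 9.

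The windows lay over transcribed loci less often than the grid did. Of the 1440 windows, 135 overlapped a locus of the Srap1 KO RNA table by at least 1 base, or 9.38% (95% exact binomial interval 7.919% to 10.999%). Of all usable grid windows 14.1% did so, 14.0% after weighting by chromosome and 13.9% in the random draw. The RNA table lists 139204 loci on these chromosomes, assembled by the authors from the reads, with levels in FPKM (a fragment count divided by transcript length and by library size). The share was below that of the chromosome's own grid on 17 of 19 autosomes. The exceptions were chromosome 14, with 7 of 46 windows (15.2% against 11.9%), and chromosome 9, with 11 of 61 (18.0% against 16.6%). On chromosome 11, which has the most loci per Mb, 3 of 53 windows overlapped a locus, or 5.66% against 21.7% of the grid.

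The median distance to the nearest knockout locus was 148 kb for the listed windows, 91.3 kb for the grid and 92.9 kb for the draw. The upper quartile was 451 kb against 326 kb. Within 100 kb of a locus lay 42.5% of the windows, and 51.8% of all grid windows, or 51.6% after weighting. The median was larger in the list than in the grid on 18 of 19 autosomes, chromosome 14 being the exception with 109 kb against 158 kb. The list was also fuller in the farthest class, with 22.2% of windows over 500 kb from a locus (20.03% to 24.39%) against 16.5% of the grid. From 50 to 100 kb the shares were close, at 11.4% and 11.1%, and so were those beyond 1 Mb, at 6.74% and 5.87%. The farthest window stood 3.18 Mb from a locus.

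The wider neighbourhood of the windows was also poorer in loci. Within 500 kb of its middle, the median window had 15 knockout loci (quartiles 1 and 63), and the median grid window 33 (2 and 90). No locus at all was found in that range for 22.4% of the windows and 16.6% of the grid.

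Windows that did overlap a locus met loci of width and level close to those under the grid. Taking the widest locus over each window, the median width was 6856 bases over the 135 windows and 7911 bases over the overlapping grid windows. The median level was 6.66 FPKM (quartiles 3.23 and 15.3) against 7.91 FPKM (3.51 and 16.6). Loci of at least 10 kb made up 44.4% and 45.7%. In the RNA table as a whole the median locus was 488 bases wide. At 22 of the 135 windows, or 16.3%, the locus had at least 20 FPKM, against 19.6% of the overlapping grid windows.

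**Figure D3:**
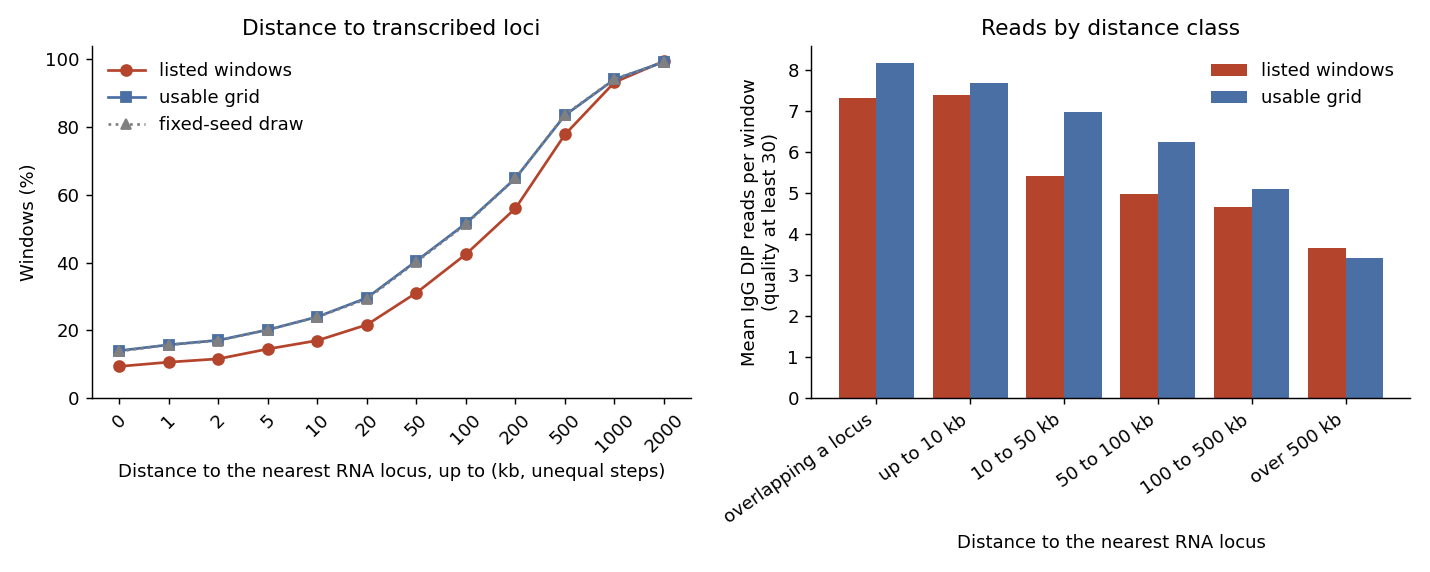
Left, the share of windows within a given distance of the nearest locus of the Srap1 KO RNA table, for listed windows, the usable grid and the fixed-seed draw, with 9.38% against 14.0% at distance 0. Right, mean IgG DIP reads of mapping quality at least 30 per window by class of that distance, from 7.31 (overlapping) to 3.65 (over 500 kb) in listed windows and from 8.18 to 3.43 in the grid.

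The IgG DIP library from knockout cells had 9127504 aligned reads, 8829315 of them on the autosomes, where 19.8% had a mapping quality under 30. At this depth a 2 kb window holds only a few reads. A listed window held 5.04 ± 3.79 reads of quality at least 30 (SD, 1440 windows), and a grid window 5.96 ± 5.23. The windows together held 7252 such reads where the grid gives 8581, a ratio of 0.845 (0.826 to 0.865). The random draw had a mean of 5.95 reads, which gives 0.846. Counts of single windows overlap almost wholly between list and grid, and the counts varied by more than counting error, so the Poisson interval is too narrow.

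The shortfall was a shift of the whole distribution rather than of a few windows. The median was 5 reads in the list and 6 in the grid, and the quartiles were 2 and 8 against 3 and 9. Up to 2 reads were found in 29.9% of the windows, beside 21.9% of all grid windows (22.2% weighted). Counts of 10 or more were found in 13.2% of the windows and in 19.4% of all grid windows (19.1% weighted). No read of quality at least 30 was found in 13.2% of the windows, and in 9.18% of all grid windows (9.25% weighted).

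**Figure D4:**
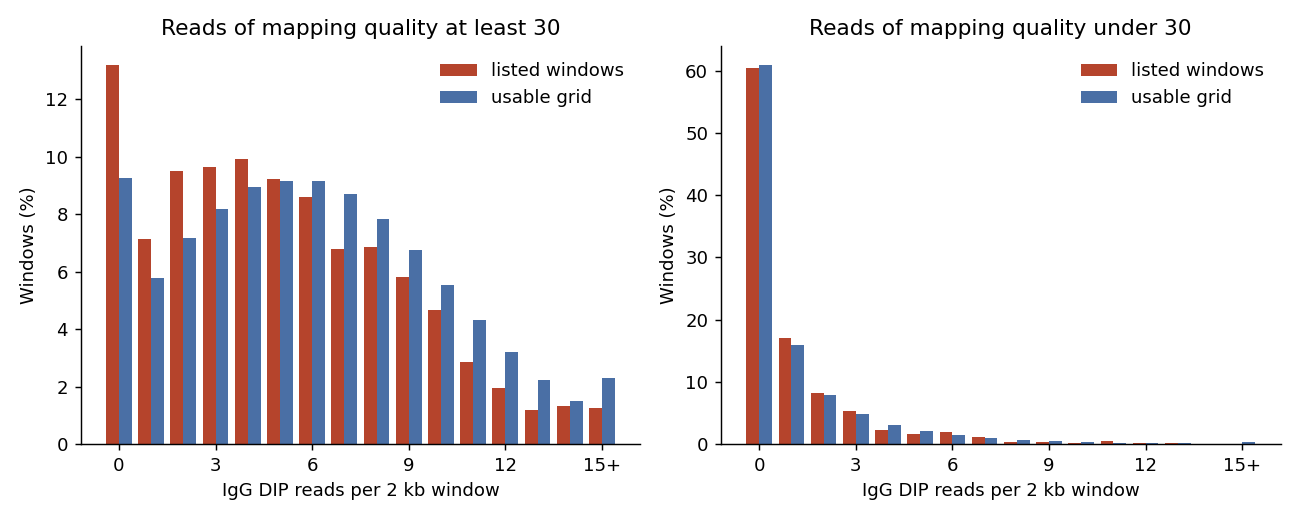
Share of windows (%) by the number of IgG DIP reads they hold, for reads of mapping quality at least 30 (left) and under 30 (right), in listed windows and in the usable grid weighted by chromosome. On the left 13.2% of listed windows and 9.25% of the grid hold 0 reads, and on the right the bars are nearly equal, with 60.4% and 60.9% at 0.

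Across chromosomes the ratio ranged from 0.652 on chromosome 14 (0.560 to 0.755) and 0.661 on chromosome 12 (0.577 to 0.754) to 1.00 on chromosome 19 (0.868 to 1.15). It was below 1 on 18 of 19 autosomes, and the whole interval was below 1 on 13 and above 1 on none. On chromosome 8 it was 0.709 (0.631 to 0.795), and on chromosome 17 it was 0.732 (0.651 to 0.819). On chromosome 3 it was 0.968 (0.891 to 1.05). The X windows held 2.04 ± 1.91 reads against 1.87 on the X grid, a ratio of 1.09 (1.01 to 1.18). The autosomal shortfall in reads of at least 30 was thus not seen there. For reads under 30 the X ratio was 0.600 (0.532 to 0.674). For reads of any quality it was 0.862 (0.806 to 0.921) on X and 0.825 (0.808 to 0.843) on the autosomes. The Poisson intervals of these ratios are too narrow as well, and the difference between X and the autosomes was not tested.

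The windows stood in wide regions of lower IgG DIP signal, and held slightly fewer reads on average than their own flanks. The 10 grid windows on either side of each listed window held 5.22 reads of quality at least 30 on average, and single steps ranged from 5.05 to 5.38. A listed window had 0.964 of the mean of its own flanks (0.942 to 0.987). It was above its flanks in 614 cases, below in 775 and equal in 51. Low counts are skewed and fall below a mean more often than above it, so this split cannot show a dip. The window's 5.04 was below the mean of each of the 20 flanking steps, but the lowest of these was 5.05. The Poisson interval of 0.942 to 0.987 is too narrow here as well, so a dip at the window itself is not established. For reads under 30 the ratio to the flanks was 0.916 (0.871 to 0.963). Reads per 2 kb were 5.22 at 22 to 100 kb and 5.28 at 202 to 500 kb from the windows. They rose to 5.43 at 502 to 1000 kb, 5.65 at 1002 to 2000 kb and 5.79 at 2002 to 5000 kb, near the 5.96 of the grid. Distance classes of different windows overlap, and the outermost counted 4212874 grid windows with repeats, where the usable grid has 1207681. Its nearness to the grid mean is therefore built in and cannot show how far the lower signal reaches.

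**Figure D5:**
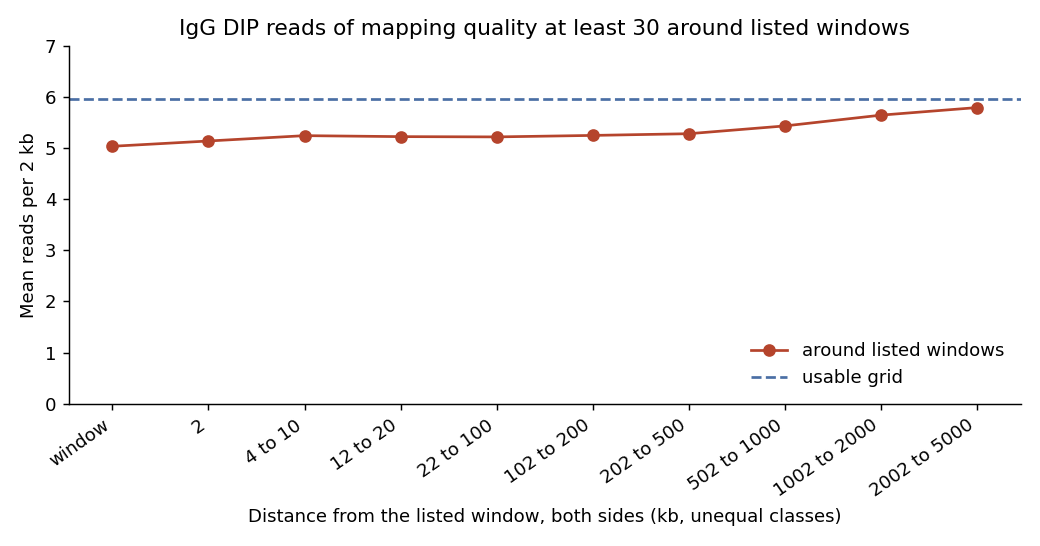
Mean IgG DIP reads of mapping quality at least 30 per 2 kb in the listed windows and at increasing distance from them on both sides (kb, unequal classes), with the mean of the usable grid as a dashed line. The value is 5.04 in the windows, 5.22 at 22 to 100 kb and 5.79 at 2002 to 5000 kb, against 5.96 in the grid. Classes of different windows overlap, so the outermost approaches the grid mean by construction.

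In the whole grid IgG DIP reads fell as the distance to a transcribed locus grew, which touches the comparison above. Grid windows that overlap a locus had 8.18 reads of quality at least 30, those 100 to 500 kb away 5.11 and those over 500 kb away 3.43. The listed windows followed the same order, with 7.31 ± 4.10 reads (SD, 135 windows), 4.65 ± 3.44 (509 windows) and 3.65 ± 3.13 (319 windows). Within classes of distance the ratio was 0.893 over loci (0.838 to 0.951) and 0.963 up to 10 kb away (0.898 to 1.03). It was 0.776 from 10 to 50 kb (0.731 to 0.823) and 0.798 from 50 to 100 kb (0.744 to 0.855). It was 0.910 from 100 to 500 kb (0.873 to 0.947) and 1.06 beyond 500 kb (1.00 to 1.13). The ratio weighted by chromosome and distance class was 0.895. This pooled shortfall was smaller than the 0.845 without distance classes, although from 10 to 100 kb the shortfall was larger, and the windows over 500 kb from a locus had none.

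Reads of quality under 30 were found in nearly equal shares of list and grid. At least 1 such read was found in 39.6% of the listed windows and 39.1% of all grid windows. The mean was 1.08 ± 2.04 reads per listed window (SD) against 1.45 in the grid, a ratio of 0.743 (0.707 to 0.781). That mean rests on a few stacks in the grid, where a single window held 90263 reads under 30. The 3124 grid windows with more than 17 reads, the highest count in the list, held 25.6% of all grid reads under 30. With the count of every window, listed or grid, capped at 10 reads, an alternative chosen after these values were seen, the ratio was 0.958. The fixed-seed draw, which took a window with 12401 reads, gave 0.482.

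The classes of reads combined as follows. Reads under 30 alone were found in 155 windows, or 10.8% (9.21% to 12.5%), beside 7.07% of all grid windows. Both classes were found in 415 windows, or 28.8% (26.5% to 31.2%), beside 32.0% of all grid windows. Reads of at least 30 alone were found in 835, or 58.0%, near the 58.8% of all grid windows. No read of either class was found in 35 windows, or 2.43% (1.70% to 3.36%), beside 2.11% of all grid windows. Each of those 35 had reads in the 10 grid windows on one side or the other, whereas 8190 of the 25455 empty grid windows, or 32.2%, stood in stretches with empty flanks. The list thus had no window inside a long stretch that the IgG DIP left empty.

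The windows with the most reads of quality at least 30 included a pair 8 kb apart on chromosome 3. The window from 25440001 to 25442000 held 22 reads, with a flank mean of 17.8, and that from 25448001 to 25450000 held 18, with a flank mean of 14.8. They lay 1533 and 1525 kb from the nearest knockout locus. On chromosome 4 the window from 137304001 to 137306000 held 20 reads, with 10.8 in its flanks. It lies inside a locus of 29.2 FPKM from 137297334 to 137314743. A second window on chromosome 4, from 139758001 to 139760000, held 17 reads at 235 kb from a locus. On chromosome 6 the window from 142782001 to 142784000 held 18 reads, with 9.65 in its flanks, inside a locus of 7.23 FPKM. None of these 5 windows had a read under 30, nor did 60.4% of all listed windows and 60.9% of the weighted grid.

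The windows with the most reads under 30 had few others. On chromosome 15 the window from 77252001 to 77254000 held 17 reads under 30 and 0 of at least 30, with flank means of 9.40 and 1.15. On chromosome 4 the window from 145932001 to 145934000 held 14 and 0, with flank means of 13.6 and 0. A count of 13 reads under 30 was found in 3 windows, 21266001 to 21268000 and 124572001 to 124574000 on chromosome 1 and 64096001 to 64098000 on chromosome 17, with 1, 0 and 0 reads of at least 30. Their flanks held 2.1, 1.5 and 4.3 reads under 30 on average. The windows were picked for their high counts, so standing above their flanks partly follows from that choice. The 5 windows lay 10.7 to 84.7 kb from the nearest locus.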

How the data were processed

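Per the submitters' processing notes, the tools named for ChIP and DIP are Bowtie 0.12.8, Trim Galore 0.3.5, MACS2 2.1.1 and Bismark 0.14.5 (builds mm9 and mm10), and for RNA Cufflinks 2.2.1.0 is named in place of Bismark (build mm9). Order and settings are not stated. Each deposited row of the IgG DIP is an aligned read with a score, which was taken to be its mapping quality. The split of reads by quality rests on this reading of the score, which was not tested. The deposited window list holds positions only, per the file headers. RNA levels are FPKM of loci assembled by the authors, per the file headers. The 2 knockout RNA tables were identical and were counted as 1 sample.

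Reads were counted in a window with at least 1 base inside. Grid windows ran from the first to the last with a read on each chromosome. Distances ran from window edge to locus edge. Poisson and binomial intervals are exact, at 95%. Python 3.11.15 with numpy 2.4.6, pandas 2.3.3, scipy 1.17.1 and matplotlib 3.10.9 was used, and counting and distances were tested on simulated data. The draws used a fixed seed of 1. No p-value was computed, because each kind of library was present once. Named windows are those with the 5 highest counts of each read class, touching windows, the 3 widest gaps and the window of another width. Bins of 5 Mb and the end of chromosome 17 were added after their values were seen. The windows and measures were chosen with earlier results of these data known. Alternatives covered the grid, the draw, the counting of reads, the quality limit, repeated starts, RNA loci and each chromosome left out. Samples of the series other than those named were not analysed here, apart from the 4 wild-type RNA tables in 1 alternative.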

Additional observations from a re-analysis of the deposited data

How the results depend on the processing

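No paired analysis was possible because each kind of library was present once and no test was made. The ratio of IgG DIP reads of quality at least 30 was within its interval under every alternative but 2. It was 0.885 over windows, listed or grid, with at least 1 such read, a filter on the counted reads themselves. With the grid weighted also by distance to an RNA locus it was 0.895. With each chromosome left out it was 0.836 to 0.853. The ratio for reads under 30 depended on a few windows. It was 0.482 against the draw, 0.635 over windows with at least 1 read of quality at least 30, 0.895 with 1 read per start and strand, 0.958 with all counts capped at 10 reads, and 0.790 weighted also by distance. Leaving out only the grid windows above the highest listed count gave 0.976, which that choice itself pushes towards 1. With each chromosome left out it was 0.712 to 0.825, with 0.798 without chromosome 2 and 0.825 without chromosome 9. The share of windows over an RNA locus was 0.669 of the grid's, and 0.594 to 0.676 with other loci, other grids or the draw, 0.648 of them with the wild-type tables. With each chromosome left out it was 0.647 to 0.694. Outside the 5 densest bins it was 0.684, and the ratio of reads of at least 30 was 0.854. The median gap was 1012 to 1078 kb with each chromosome left out. The fullest part of the chromosomes held 1.13 times an even share, 1.24 times when counted from base 1 and 1.04 times in 3 parts. Comparison with flanks of 2 or 50 grid steps gave 0.965. With about 5 reads per window, single windows cannot be told from the grid.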

Other observations

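Over the 19 autosomes, listed windows per Mb and the mean of IgG DIP reads of quality at least 30 per grid window went in opposite directions, with Pearson's r of -0.56 and Spearman's rho of -0.58. Windows per Mb and knockout RNA loci per Mb had r of -0.20 and rho of -0.15. Loci per Mb and IgG DIP reads had r of 0.82 and rho of 0.64. These are descriptions over chromosomes of unequal length, which share the same libraries.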
